A study of Mus musculus with 3 samples.

Results

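The genes described here encode the enzymes and transporters that take glucose into the cell, split it to pyruvate, turn pyruvate into lactate and export it, together with the enzymes of the pentose phosphate pathway. The 32 genes were chosen by symbol among the 44788 gene symbols of the count table, and all 32 were found there. Of these, 23 belong to glucose uptake and glycolysis, 2 to lactate transport and 7 to the pentose phosphate pathway. The RNA came from T lymphocytes of BALB/c mouse spleens (females of 6 to 8 weeks), pulled out of the splenocytes with magnetic beads against CD90.2 (Thy1), kept in medium with 2% serum and exposed to LZ-8 for 15 h. LZ-8 is an immunomodulatory protein of the fungus Ganoderma lucidum that is mitogenic for T cells. There were 3 libraries, all from LZ-8-treated cells, so genes are compared with each other inside each library, and no value shows what LZ-8 changed. Whether the libraries stem from separate animals or cultures is not in the labels, so p-values measure only the spread between these libraries, which may be technical.

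Glycolysis converts glucose to pyruvate in the cytosol. Several of its steps can be run by any of a few isozymes, enzymes that catalyse the same reaction from different genes and that differ in tissue distribution and regulation. Activated T cells are known for making lactate from much of their glucose even when oxygen is present. The pentose phosphate pathway branches off glucose 6-phosphate and supplies NADPH and the ribose of nucleotides, and its non-oxidative arm returns sugars to glycolysis.

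The libraries held 12669690 to 19041670 counts. Levels are given in CPM, counts per 1000000 counts of the library, as the mean ± SD over the 3 libraries (n = 3 throughout). Since longer transcripts collect more reads, levels of different genes are compared as CPM per kilobase, with the merged exons of all annotated transcripts as the length, and a second length, that of the longest coding transcript, is given where it matters. The isolated cells carried the transcripts of T cells: 10 of 10 T cell markers had at least 100 CPM, and their summed level was 4110 ± 82.6 CPM. The list includes Thy1, the target of the beads, which is not independent of the isolation. The sums of the other marker lists ranged from 16.7 to 18.5 CPM for 6 B cell genes, from 3.63 to 4.55 CPM for 7 monocyte and macrophage genes, from 0.158 to 0.340 CPM for 6 neutrophil genes, from 2.31 to 2.57 CPM for 6 erythroid genes and from 7.98 to 8.63 CPM for 4 platelet genes. Csf1r, C1qa, C1qc and Fcgr1 of the macrophage list, Elane and Camp of the neutrophil list, Alas2 of the erythroid list and Pf4 and Ppbp of the platelet list had no read in any library.

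The 32 genes together held 7344, 7549 and 7576 CPM in replicates 1, 2 and 3, or 0.734% to 0.758% of all counts. Lactate dehydrogenase A (Ldha), aldolase A (Aldoa) and pyruvate kinase (Pkm) made up 55.9% of that sum. The sum and this share leave out reads counted under annotated copies of the genes, described below. With those reads added, the sum averaged 11461 CPM, and Eno1 averaged 1953 CPM, above Ldha at 1640 CPM. Of the 32 genes, 15 reached 100 CPM (46.9%), against 19.0% of the 13500 genes that passed the filter on low counts (at least 1 CPM in at least 2 libraries). The median over the 31 genes that passed it was 93.0 CPM, or 19.0 CPM per kilobase of exon. Over all genes that passed, the median was 27 CPM. Over the 12804 of those with an exon length, it was 8.27 CPM per kilobase. Hk3 was the gene that did not pass. Gapdh and Pgk1 were among the genes under 100 CPM, but had 1184 and 525 CPM with the reads of copies added.

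**Figure D1:**
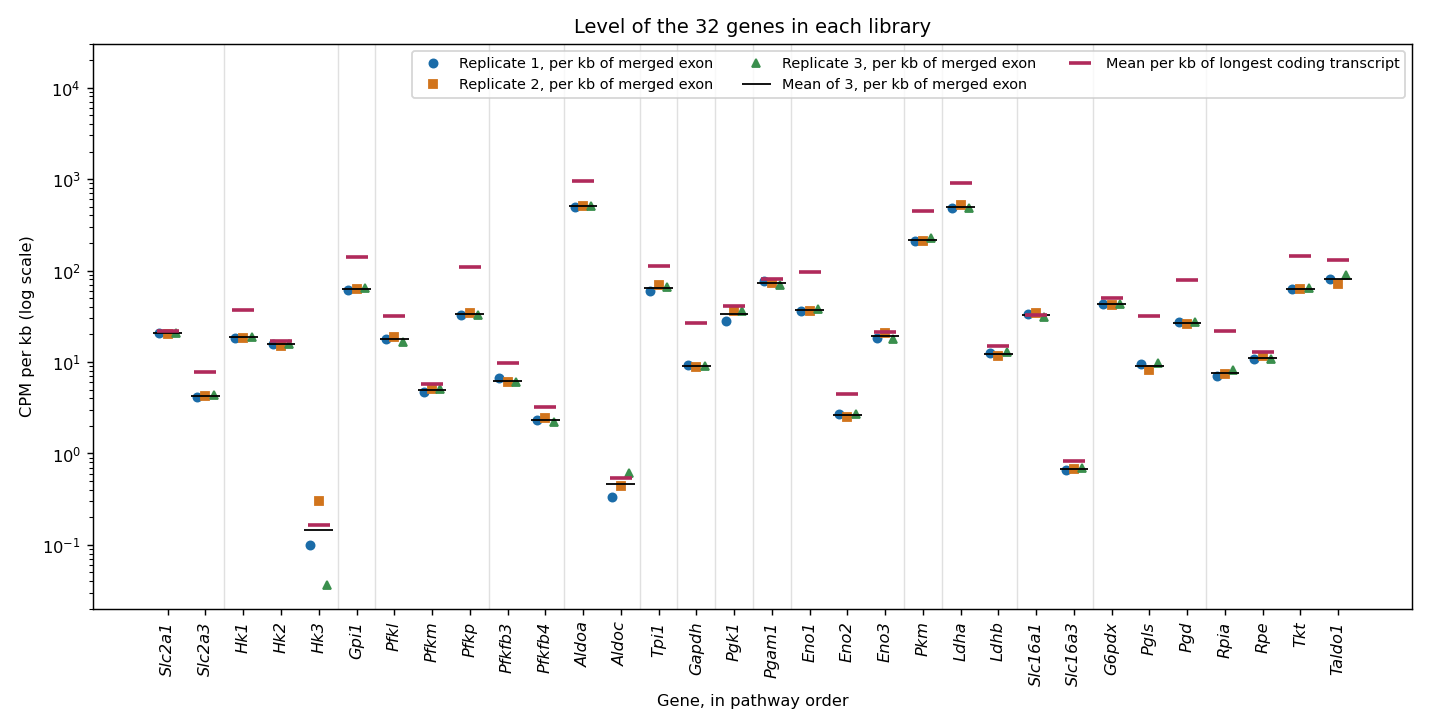
Level of each of the 32 genes in CPM per kb on a log axis, in pathway order. Points are the 3 libraries and black lines their mean, per kb of merged exon, and red lines are the mean per kb of the longest coding transcript; Aldoa, Ldha and Pkm are highest and Slc16a3, Aldoc and Hk3 lowest on both scales. Reads of annotated copies are not included.

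Per kilobase of exon, Aldoa (504 ± 12.6 CPM per kilobase) and Ldha (495 ± 19.9) were the highest of the 32, and their ranges over the libraries overlapped. Pkm followed at 215 ± 9.95 CPM per kilobase, separated from its neighbours in every library. The next group was Taldo1 (80.9 ± 8.79), Pgam1 (72.9 ± 3.26), Tpi1 (64.9 ± 4.61), Tkt (63.3 ± 1.04) and Gpi1 (63.0 ± 1.49 CPM per kilobase). Over the whole order, 12 of the 31 pairs of neighbours had overlapping ranges. The same 3 genes led per kilobase of the longest coding transcript, in the same order, at 947, 904 and 442 CPM per kilobase. With the reads of annotated copies added, Eno1 was first on that scale at 963 CPM per kilobase, and Gapdh, at 834, stood above Pkm, at 501.

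Glucose enters T cells through facilitative transporters. Slc2a1, which encodes GLUT1, the transporter that T cells raise on activation, had 72.3, 70.8 and 72.5 CPM in replicates 1, 2 and 3. Slc2a3, which encodes the high-affinity transporter GLUT3, had 29.7, 30.9 and 31.9 CPM. Each library thus held more Slc2a1 than Slc2a3, and the values of the 2 genes lay far apart. Per kilobase of exon the log2 ratio of Slc2a1 to Slc2a3 was 2.27 ± 0.05, a 4.81-fold difference, and on the coding transcript length it was 1.5 ± 0.05.

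Hexokinases phosphorylate glucose and so keep it in the cell. Hk2, the inducible form, had 94.6, 90.4 and 94.0 CPM, and Hk1, the form found in most tissues, had 157, 158 and 160 CPM. The log2 ratio of Hk2 to Hk1 was -0.25 ± 0.04 per kilobase of exon and -1.13 ± 0.04 per kilobase of coding transcript, so Hk1 led in every library while the size of its lead depended on the length used. Hk1 has an annotated exon length of 8532 bases against 4278 for its longest coding transcript.

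Hk3, a hexokinase of myeloid cells, had 7, 14 and 2 reads, a mean of 0.536 ± 0.506 CPM. Of all hexokinase reads, Hk3 took 0.146% in replicate 1, with an exact 95% binomial interval of 0.0588 to 0.301%. The share for replicate 2 was 0.443%, with bounds of 0.242 and 0.742%. For replicate 3 it was 0.0534%, with bounds of 0.00647 and 0.193%. Replicate 2 was the highest and replicate 3 the lowest, and the intervals of replicates 2 and 3 did not overlap. In bulk RNA, fewer cells of a type and less RNA per cell cannot be told apart. The summed neutrophil markers were 0.158, 0.237 and 0.340 CPM and the monocyte and macrophage markers 4.52, 3.63 and 4.55 CPM in replicates 1, 2 and 3. These sums rest on few reads or few genes, and they cannot show where the Hk3 reads came from. Mpo, the highest neutrophil marker, had 1, 1 and 3 reads. Cd68 had 80, 46 and 65 reads, a mean of 4.08 CPM out of 4.23 CPM for the monocyte and macrophage list. The part of other cells in the Hk3 reads was not tested.

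Glucose-6-phosphate isomerase (Gpi1) stood at 407 ± 9.61 CPM. Phosphofructokinase, the committed step of glycolysis, is built from 3 kinds of subunit. Pfkp, the platelet-type subunit, had 439, 465 and 441 CPM, Pfkl, the liver type, had 119, 124 and 110 CPM, and Pfkm, the muscle type, had 15.8, 16.7 and 17.1 CPM. The subunits kept this order in each library without overlap. Pfkp made up 76.9 ± 0.574% of the phosphofructokinase reads, 59.7 ± 0.578% per kilobase of exon and 74.3 ± 0.566% per kilobase of coding transcript. The log2 ratio per kilobase of exon was 0.92 ± 0.06 for Pfkp to Pfkl, 2.75 ± 0.06 for Pfkp to Pfkm and 1.83 ± 0.13 for Pfkl to Pfkm. Pfkp carries the longest merged exons of the 32 genes, 13401 bases, with 4145 for the coding transcript, which raised its log2 ratio to Pfkl to 1.78 ± 0.06.

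Fructose 2,6-bisphosphate is the strongest activator of phosphofructokinase and is made and broken down by bifunctional enzymes. Pfkfb3, whose product favours synthesis, had 50.7, 45.1 and 45.3 CPM, and Pfkfb4 had 11.3, 11.8 and 10.8 CPM. The log2 ratio of Pfkfb3 to Pfkfb4 was 1.42 ± 0.12 per kilobase of exon, of the same sign in each library.

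Aldolase splits the 6-carbon sugar. Aldoa, the muscle and ubiquitous form, had 1425, 1484 and 1492 CPM, while Aldoc, the brain form, had 1.1, 1.42 and 1.97 CPM (21, 18 and 29 reads). The log2 ratio of Aldoa to Aldoc per kilobase of exon was 10.11 ± 0.38, the largest of the 17 ratios measured. Aldoc gave 0.102 ± 0.0278% of the aldolase reads.

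Triosephosphate isomerase (Tpi1) stood at 179 ± 12.7 CPM, phosphoglycerate kinase (Pgk1) at 74.6 ± 10.6 CPM and phosphoglycerate mutase (Pgam1) at 145 ± 6.47 CPM. Gapdh, which encodes glyceraldehyde-3-phosphate dehydrogenase and is a common reference transcript, had 38.4, 36.8 and 37.2 CPM. At 9.06 ± 0.203 CPM per kilobase of exon it ranked 22 among the 32 genes. With the reads of annotated copies, described below, added, Gapdh averaged 1184 ± 18.9 CPM, Pgk1 525 ± 12.3 CPM and Pgam1 388 ± 8.18 CPM. Enolase catalyses the step before pyruvate kinase. Eno1, the ubiquitous form, had 196, 193 and 202 CPM, Eno3, the muscle form, had 31.8, 36.4 and 31.1 CPM, and Eno2, the neuronal form, had 12.6, 11.9 and 12.6 CPM. The log2 ratio per kilobase of exon was 3.80 ± 0.03 for Eno1 to Eno2, 0.95 ± 0.15 for Eno1 to Eno3 and 2.85 ± 0.17 for Eno3 to Eno2. With the reads of annotated Eno1 copies added to Eno1, the first ratio became 7.11 ± 0.07 and the second 4.26 ± 0.10.

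**Figure D2:**
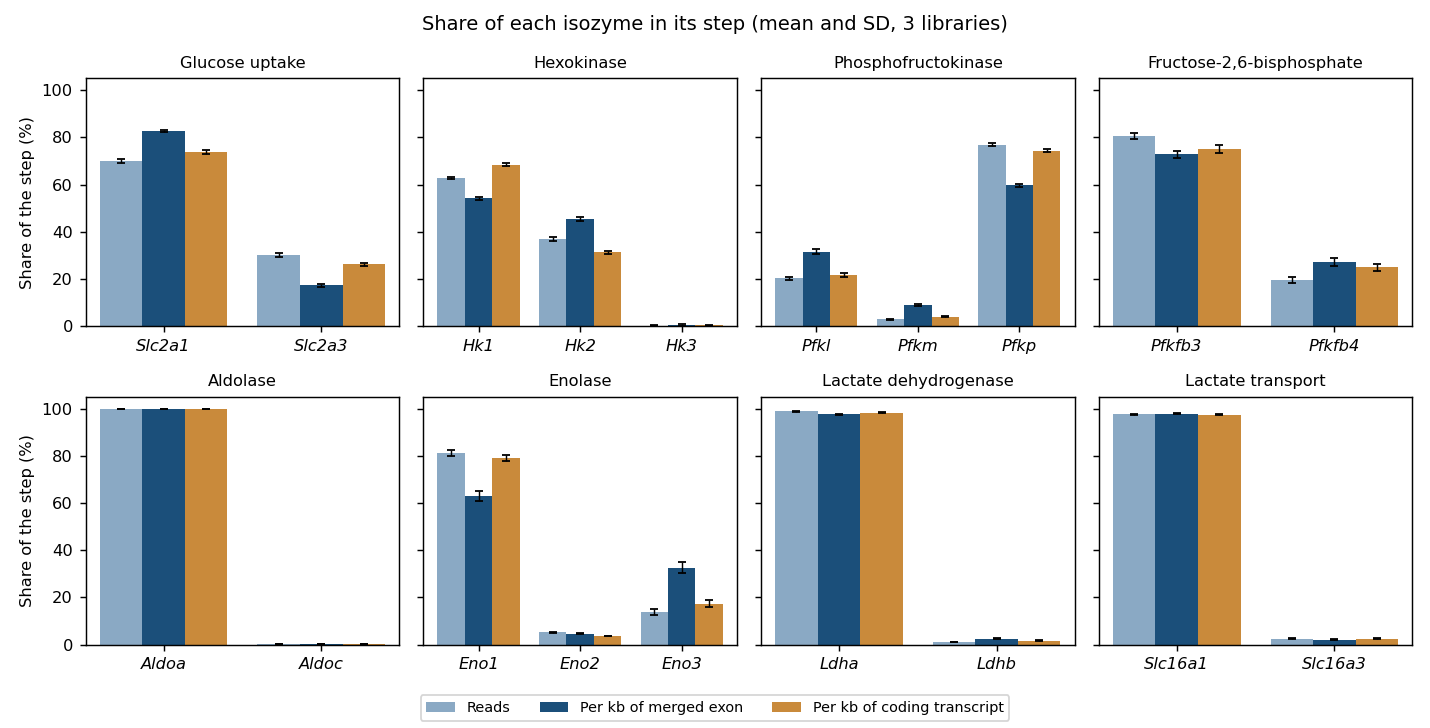
Share of each isozyme in its step, in percent, for the 8 steps that have isozymes among the 32 genes. The total of a step is over these genes alone. Reads of annotated copies and of other isozymes are left out, so the enolase shares omit the 1756 CPM of the 2 Eno1 copies. Bars are the mean of 3 libraries with the SD, by reads, per kb of merged exon and per kb of the longest coding transcript; aldolase, lactate dehydrogenase and lactate transport each rest almost wholly on 1 gene, and Pfkp leads phosphofructokinase on all 3 scales.

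Lactate dehydrogenase is a tetramer of A and B subunits. A-rich forms are associated with making lactate and B-rich forms with using it. Ldha had 1592, 1715 and 1613 CPM and Ldhb had 19.7, 18.2 and 20.2 CPM. Ldha gave 98.8 ± 0.106% of the lactate dehydrogenase reads, with a log2 ratio to Ldhb of 5.33 ± 0.14 per kilobase of exon, a 40.1-fold difference. Among the 31-base words (31-mers) of their transcripts, 19.6% for Ldha and 33.0% for Ldhb also occurred in transcripts of other annotated genes.

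Lactate crosses the membrane through monocarboxylate transporters. Slc16a1, which encodes MCT1, had 147, 153 and 136 CPM, and Slc16a3, which encodes MCT4, the low-affinity exporter of strongly glycolytic cells, had 3.52, 3.63 and 3.67 CPM (67, 46 and 54 reads). The log2 ratio of Slc16a1 to Slc16a3 was 5.58 ± 0.10 per kilobase of exon, a 48.0-fold difference, and 5.29 ± 0.10 on the coding transcript length. Neither gene shared a 31-mer with another annotated transcript. Bsg, which encodes basigin, the partner that brings MCT1 and MCT4 to the cell surface, had 213, 194 and 222 CPM, or 116 ± 7.89 CPM per kilobase of exon, against 32.9 ± 1.96 for Slc16a1. Emb, the other known partner, had 8.18 ± 0.258 CPM per kilobase.

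The promoters of the 4 genes of lactate production and transport are shown, chosen with their motif counts known (RefSeq, GRCm38.p6, 250 bases before to 50 after the start site, on the gene's strand). Capitals mark ACGTG on either strand, that is ACGTG or CACGT, the core that HIF factors bind. It overlaps CACGTG, the E-box that Myc and HIF can both bind. Ldha has 2 start sites in the table, and the first by position is shown.
Ldha, chr7:46845554-46845853, + strand: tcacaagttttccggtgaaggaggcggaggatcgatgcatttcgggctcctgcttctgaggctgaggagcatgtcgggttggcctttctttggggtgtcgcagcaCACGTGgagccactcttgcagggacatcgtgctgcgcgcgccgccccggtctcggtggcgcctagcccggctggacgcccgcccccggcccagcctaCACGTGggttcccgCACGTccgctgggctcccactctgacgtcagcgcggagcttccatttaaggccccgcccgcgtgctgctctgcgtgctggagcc
Ldhb, chr6:142507908-142508207, - strand: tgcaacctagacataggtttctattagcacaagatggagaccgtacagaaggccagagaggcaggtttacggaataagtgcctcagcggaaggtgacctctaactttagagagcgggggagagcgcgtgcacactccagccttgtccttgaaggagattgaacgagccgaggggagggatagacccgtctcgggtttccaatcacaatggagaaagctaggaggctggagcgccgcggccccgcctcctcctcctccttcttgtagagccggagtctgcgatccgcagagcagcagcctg
Slc16a1, chr3:104638414-104638713, + strand: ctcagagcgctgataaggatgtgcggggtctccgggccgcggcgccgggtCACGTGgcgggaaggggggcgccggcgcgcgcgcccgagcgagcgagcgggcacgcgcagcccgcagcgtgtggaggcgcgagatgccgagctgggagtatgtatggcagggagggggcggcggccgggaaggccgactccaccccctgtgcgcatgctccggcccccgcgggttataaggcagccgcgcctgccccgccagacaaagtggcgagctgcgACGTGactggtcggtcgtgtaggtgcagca
Slc16a3, chr11:120948817-120949116, + strand: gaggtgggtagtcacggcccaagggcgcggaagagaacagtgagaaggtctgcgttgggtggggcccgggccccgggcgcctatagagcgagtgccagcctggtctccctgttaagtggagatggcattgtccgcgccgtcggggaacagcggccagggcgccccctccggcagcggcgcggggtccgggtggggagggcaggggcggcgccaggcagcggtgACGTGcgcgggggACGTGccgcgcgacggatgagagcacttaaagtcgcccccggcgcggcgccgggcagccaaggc

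Counting each strand, the Ldha window shown held 5 ACGTG matches with 2 CACGTG and the window of the other Ldha start site held 0 of either, the Slc16a1 window 3 with 1 CACGTG, the Slc16a3 window 2 and the Ldhb window none. At aldolase, the most one-sided step, the 3 Aldoa windows held 1, 1 and 0 ACGTG matches and the 2 Aldoc windows 1 and 0, with no CACGTG in any. Promoters were listed for 31 of the 32 genes, 44 windows in all, of which 19 (43.2%) held ACGTG on either strand and 4 (9.09%) held CACGTG. Among all 32851 windows of the same length the shares were 19.6% and 7.15%. The 44 windows were not compared with windows of like base composition, and a match is a string of letters and not a bound site.

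The pentose phosphate genes summed to 1057 ± 34.4 CPM. In the oxidative arm, which yields NADPH, Pgd (6-phosphogluconate dehydrogenase) had 177, 169 and 177 CPM, G6pdx (glucose-6-phosphate dehydrogenase, the entry step) had 134, 130 and 134 CPM, and Pgls (6-phosphogluconolactonase) had 35.6, 30.5 and 36.4 CPM. In the non-oxidative arm, Tkt (transketolase) had 460, 463 and 475 CPM, Taldo1 (transaldolase) had 177, 156 and 194 CPM, Rpia (ribose-5-phosphate isomerase) had 37.9, 39.4 and 43.4 CPM and Rpe (ribulose-phosphate epimerase) had 33.7, 36.5 and 33.7 CPM. The order of neighbouring enzymes turned with the length used. The log2 ratio of Tkt to Taldo1 was -0.35 ± 0.14 per kilobase of exon but 0.17 ± 0.14 on the coding transcript length, that of Pgd to G6pdx was -0.67 ± 0.02 and 0.65 ± 0.02, and that of Rpia to Rpe was -0.57 ± 0.13 and 0.78 ± 0.13. Which gene of these 3 pairs was higher per transcript could therefore not be settled from gene counts.

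All 17 ratios had the same sign in each of the 3 libraries, and 14 also kept it by reads and on the coding transcript length. An exact two-sided sign-flip permutation test gave p = 0.25 for each, raw and adjusted over the 17, which is the smallest that 3 libraries allow. No ratio could therefore pass a threshold of 0.05, whatever its size.

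Other genes of the same steps were mostly silent or low, but some exceeded a listed gene of their step. Of 28 further isozymes and transporters, 10 had a mean of at least 1 CPM and 9 had no read in any library, which allows levels of up to 0.158, 0.237 and 0.204 CPM in replicates 1, 2 and 3 (3 counts). The highest was Eno1b, listed under its older symbol Gm5506, at 976 ± 196 CPM, followed by Adpgk (an ADP-dependent glucokinase) at 51.6 ± 1.26, the glucose transporter family member Slc2a6 at 34.5 ± 2.18 and Slc2a9, a urate transporter of that family, at 26.3 ± 1.75 CPM. Eno1b is also counted below as an Eno1 copy, since 81.8% of its 31-mers occur in Eno1 transcripts. Its level may therefore depend on how shared reads were assigned. Slc2a6 stood at 10.7 CPM per kilobase of exon, above Slc2a3 at 4.26. Pfkfb2, picked after its values were seen, had 19.9 CPM, or 2.74 CPM per kilobase, against 11.3 and 2.32 for Pfkfb4. Among tissue-restricted isozymes, picked after their values were seen, Pgk2 of testis had no read, and Pklr of liver and red cells and Ldhc of testis had 0, 1 and 0 reads each. They do not stand for the whole list, in which Bpgm, Pfkfb1 and Ldhal6b, also picked after their values were seen, went the other way. Bpgm had 313, 181 and 196 reads, Pfkfb1 had 62, 37 and 35, and Ldhal6b had 20, 9 and 6. Of 14 partners and side-branch genes, 13 had at least 1 CPM, led by Bsg, by Txnip (139 ± 6.08 CPM), whose product limits glucose uptake, by Gpd1l (61.8 ± 0.630 CPM) and by Emb (56.5 ± 1.78 CPM).

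For several members most reads of the same or nearly the same sequence were counted under other gene names. A copy is here an annotated gene of which at least 50% of the 31-mers occur in transcripts of a member, and 50 copies of 8 members were in the table, 46 of them annotated as processed pseudogenes and 3 as protein-coding. Together the copies held 3972 ± 40.8 CPM, against 7490 ± 127 CPM for the 32 genes. Eno1 itself held 197 ± 4.45 CPM against 1756 ± 32.3 CPM for its 2 copies, so that the copies had 89.9 ± 0.351% of the joint reads. Gapdh held 37.4 ± 0.839 CPM against 1147 ± 19.3 CPM for 41 copies (96.8 ± 0.106%). Pgk1 held 74.6 ± 10.6 CPM against 450 ± 9.47 CPM for 2 copies (85.8 ± 1.83%), and Pgam1 held 145 ± 6.47 CPM against 243 ± 10.8 CPM for 1 copy, Pgam1-ps2 (62.7 ± 1.91%). The copies had the smaller part for Gpi1 (34.4 ± 0.684%), Ldhb (23.5 ± 1.1%), Pkm (11.7 ± 0.403%) and Tpi1 (7.39 ± 0.717%).

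**Figure D3:**
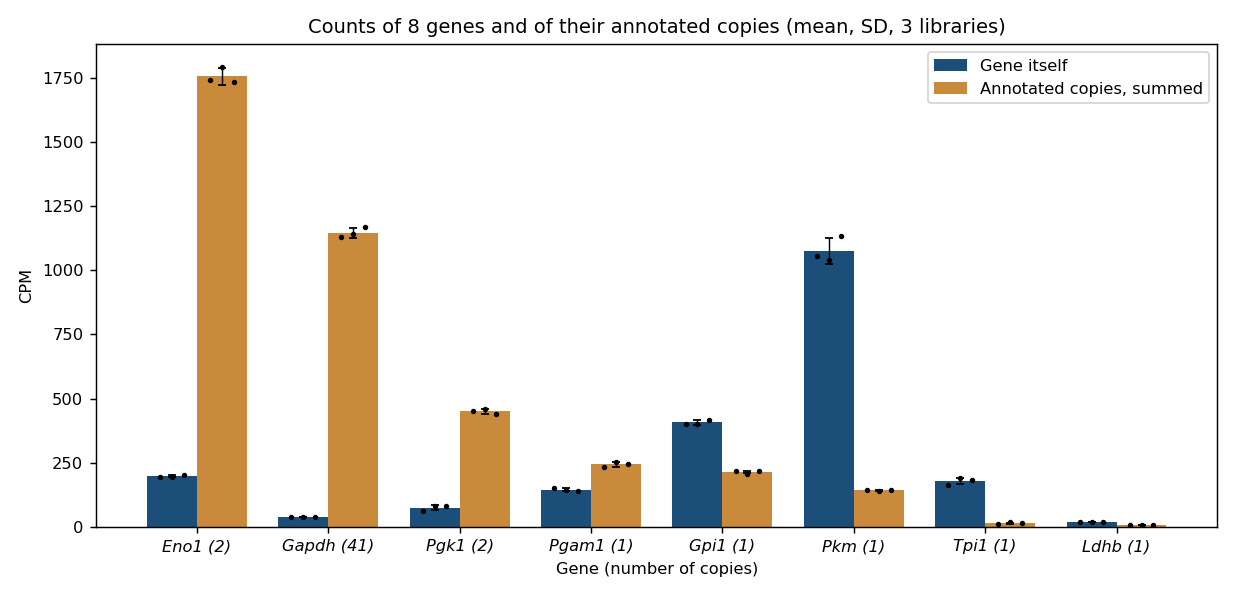
Mean CPM with the SD of 8 genes and of the sum of their annotated copies, with the 3 libraries as dots and the number of copies in parentheses. For Eno1, Gapdh, Pgk1 and Pgam1 the copies stand above the gene, and for Gpi1, Pkm, Tpi1 and Ldhb below it.

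The share of a copy's 31-mers found in its member ranged from 52.8% to 100% over the 50 copies. Of the 3 copies aligned to the coding sequence, all differed from it at few or no bases, and their stretches are shown (GENCODE vM21, GRCm38; base 1 is the A of the start codon, and capitals mark the base at which the sequences shown differ). Gm13394, on chromosome 2 at 28933610 to 28934609, was the Gapdh copy with the highest level, at 345 ± 16.7 CPM. Aligned over the 999 coding bases of Gapdh (chromosome 6, - strand), Gm13394 differed at 1 base and Gm12671 (chromosome 4) at 0. Gm4735, on chromosome 2 at 80837141 to 80838442, differed from the 1302 coding bases of Eno1 (chromosome 4, + strand) at 5. The first 3 lines are bases 316 to 376 and the last 2 lines bases 696 to 756.
Gapdh: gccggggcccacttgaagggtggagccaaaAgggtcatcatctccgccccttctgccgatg
Gm13394: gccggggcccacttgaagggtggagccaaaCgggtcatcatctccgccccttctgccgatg
Gm12671: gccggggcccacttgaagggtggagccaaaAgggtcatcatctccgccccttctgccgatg
Eno1: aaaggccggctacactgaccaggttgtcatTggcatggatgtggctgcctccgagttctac
Gm4735: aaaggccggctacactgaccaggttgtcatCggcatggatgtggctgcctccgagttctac

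How reads that fit several places were assigned is not given in the sources used here, so these counts do not tell how much RNA each locus made. With the reads of the copies added, the highest levels per kilobase of the longest coding transcript were Eno1 (963 ± 14.2 CPM per kilobase), Aldoa (947 ± 23.6), Ldha (904 ± 36.3) and Gapdh (834 ± 13.3), followed by Pkm at 501 ± 20.8 and Pgk1 at 287 ± 6.76. Without them Eno1 ranked 9 and Gapdh 18 on that scale. The levels of these 2 genes, and of Pgk1 and Pgam1, are therefore uncertain.

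The libraries were close to one another. Among the 31 genes tested, 9 differed between the libraries at an adjusted p under 0.05 (edgeR, likelihood-ratio test at dispersion 0, Benjamini-Hochberg adjustment over 13500 genes), against 13.7% of all genes tested. This test compares these libraries and not conditions, and it calls abundant genes more readily. It sets the libraries against counting noise alone and takes reads as independent molecules, which reads without molecular identifiers are not, so its p-values may be too small. Of the 15 genes with at least 100 CPM 8 were called, against 33.9% of all tested genes of that level. The median range between libraries was 0.12 log2 units over the 31 genes and 0.16 over all genes tested.

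Pgk1 had the widest range of the 9 genes, 0.38 log2 units, with 62.4 CPM in replicate 1 and 80.6 and 80.8 CPM in replicates 2 and 3 (adjusted p = 1.42e-10). Its sum with its 2 copies was 515, 538 and 520 CPM, and that sum did not pass (adjusted p = 0.0767). Taldo1, at 177, 156 and 194 CPM, had a range of 0.32 log2 units (adjusted p = 1.49e-11). Tpi1, at 165, 190 and 182 CPM, was lowest in replicate 1 (adjusted p = 7.61e-06). Pkm was highest in replicate 3 (1055, 1040 and 1133 CPM, adjusted p = 2.93e-15), and Ldha was highest in replicate 2 (adjusted p = 6.49e-15). The other 4 were Aldoa, Pfkp, Pfkl and Slc16a1, with ranges of 0.08 to 0.16 log2 units. No replicate was highest in all 9. Of the further isozymes 1 of 10 tested was called, Eno1b, and of the partners 2 of 13, Bsg (adjusted p = 3e-05) and Shpk. Both counts stand against 13.7% of all genes tested.

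The 2 Eno1 copies differed between the libraries in opposite directions. Gm5506 (Eno1b) had 845, 1202 and 881 CPM and Gm4735 had 896, 591 and 852 CPM in replicates 1, 2 and 3. Replicate 2 was the highest for Gm5506 and the lowest for Gm4735, and the adjusted p of Gm5506 was 4.83e-232. Their sum was 1742, 1793 and 1733 CPM, a range of 0.05 log2 units, against 0.51 and 0.60 for Gm5506 and Gm4735 alone. Eno1 itself, with 196, 193 and 202 CPM, was not called (adjusted p = 0.357).

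**Figure D4:**
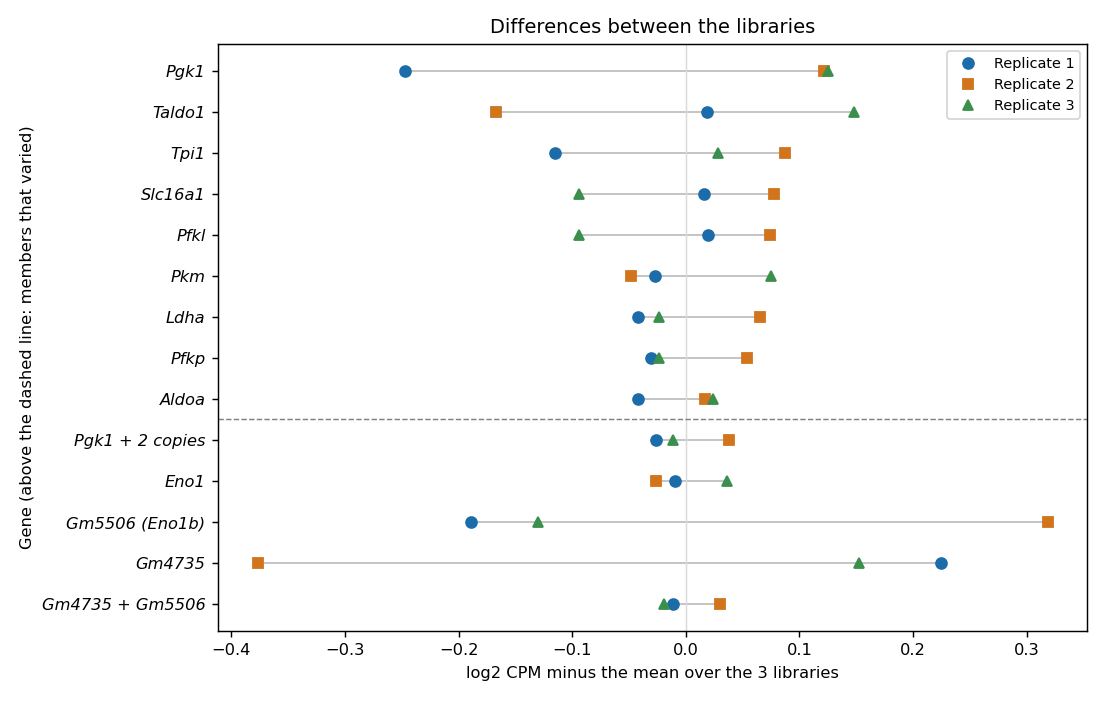
log2 CPM of each library minus the mean of the 3, for the 9 genes of the set that varied (above the dashed line) and for Eno1, its 2 copies, the sum of those copies, and Pgk1 with its copies (below it). Replicate 2 is highest for Gm5506 and lowest for Gm4735, while their sum varies by 0.05 log2 units.

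Which genes were called depended on the libraries compared. Without replicate 1, 5 of the 31 genes were called (8.48% of all genes tested), without replicate 2, 7 (9.03%), and without replicate 3, 6 (5.61%). Taldo1 was the gene called in each of the 3 pairs. Of the 9 genes, Aldoa, Pfkp, Pgk1 and Tpi1 were not called without replicate 1, Ldha, Pfkl, Pfkp and Slc16a1 were not called without replicate 2, and Pfkl, Pkm and Slc16a1 were not called without replicate 3. Without replicate 2, Gpi1 and Pgam1 were called in addition. With the reads of copies added, 10 genes were called (13.7% of all), with Eno1 (adjusted p = 0.034) and Gapdh (adjusted p = 0.00926) in addition and without Pgk1. With no filter on low counts 8 of 32 genes were called (7.28% of all), Hk3 among them, and with a minimum of 10 CPM 9 of 29 (19.8%).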

How the data were processed

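The authors deposited raw read counts per gene symbol, 1 column per library, for 3 libraries of LZ-8-treated mouse T lymphocytes (total RNA, Ion Proton RNA-seq kit, per the labels' protocols). The submitters' processing notes name the build mm10. Aligner, counter, annotation, strand and the handling of multi-mapping reads: not given in the sources used here. Reads of overlapping, antisense or near-identical genes may therefore be split between them. The library totals, 12669690 to 19041670, set the counting precision, and intervals (exact, Clopper-Pearson, 95%) and the floor of 3 counts cover counting error only.

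CPM used library totals. Exon lengths, positions and 31-mers came from GENCODE vM21 (GRCm38, which mm10 denotes), with 32189 symbols matched, 1194 of them under an older symbol, and all 32 genes among them. Of the 2 GENCODE genes named Aldoa, the one overlapping RefSeq's Aldoa was used. Ratios had 0.5 added to each count. With 1 group, edgeR's quasi-likelihood test could not be used, so libraries were compared with edgeR 4.0.16 (TMM, glmFit with dispersion 0, likelihood-ratio test). Tested on simulated data with 13509 genes, it found 76 of the 100 that differed 1.5-fold, 89 of the 100 that differed 2-fold, and 10 others. The simulated counts had counting noise alone, which the test assumes. The 10 others therefore do not tell how many false calls it makes on the real libraries. Alternatives were DESeq2 1.42.0 size factors, unscaled totals, other filters, lengths and added counts, leaving out each library, and adding copies. The software was Python 3.11.15 (scipy 1.17.1, numpy 2.4.6, matplotlib 3.10.9, pandas 2.3.3) and R 4.3.3.

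The genes and lists were chosen with earlier results of these data known. All 32 genes could be named, and of other lists the 4 genes with the highest mean CPM and of copies the highest one. Exceptions, named after their values were seen, are Gm12671, Gm4735, Shpk, the cell type markers listed at 0 reads and the isozymes so marked.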

Additional observations from a re-analysis of the deposited data

How the results depend on the processing

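No paired analysis was possible because all 3 libraries belong to 1 group. Of the 17 ratios, all kept their sign with 0.1 or 1 added to each count, with the reads of copies added and with each library left out. By reads alone 3 reversed, Pgd to G6pdx to 0.39, Rpia to Rpe to 0.21 and Tkt to Taldo1 to 1.41, and on the longest coding transcript length the same 3 pairs reversed, to 0.65, 0.78 and 0.17. Leaving out 1 library gave 5 to 7 genes that differed between libraries (5.61% to 9.03% of all genes tested). With all 3 libraries there were 9 (13.7% of all), and the other settings gave 8 to 10 (7.28% to 19.8% of all). The share of all genes called thus moved with the setting too. Without an expression filter Hk3 was among the 8 called (7.28% of all genes tested), while Pfkl and Pfkp were not. The summed level was 7446 to 7562 CPM with a library left out, and 11461 CPM with the copies added. With a looser definition of copies (10% of their 31-mers, chosen after seeing the data) it was 11831 CPM. The test of library differences needs depth, so at low counts, as for Hk3, Aldoc and Slc16a3, small differences were not detectable.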
